A study of Mus musculus with 16 samples.

Results

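The clustered protocadherins are a family of cell adhesion genes that lie side by side on mouse chromosome 18 in an alpha, a beta and a gamma cluster. They were picked by gene symbol: Pcdha and Pcdhac genes, Pcdhb genes, and Pcdhga, Pcdhgb and Pcdhgc genes. The rule found 58 genes among 53379 gene IDs, 14 in the alpha, 22 in the beta and 22 in the gamma cluster. Both entries named Pcdha11 were kept, and they are told apart here by their gene IDs, ENSMUSG00000007440 and ENSMUSG00000102206.

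RNA was measured in dorsal root ganglia, which hold the cell bodies of sensory neurons, from naive female and male mice of 8 to 12 weeks. Every mouse carried the genotype Nav1.8Cre/Rosa26fstrap on a C57BL/6J background, so all groups share both alleles. Cre driven by the Scn10a promoter switches on the ribosomal fusion protein EGFP-L10a in neurons that make or once made the sodium channel Nav1.8, most of which are nociceptors, the neurons that sense painful stimuli. Ganglia of 3 mice of 1 sex were pooled, with 4 pools per sex, and each pool gave a library of total RNA from the whole ganglion (IN) and a library of RNA pulled down with the tagged ribosomes (IP). The 16 libraries therefore form 4 groups of 4: female IN, female IP, male IN and male IP.

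Clustered protocadherins sit at the cell surface and bind copies of themselves on other cells, and each neuron switches on its own subset of them by choice among many promoters. In the alpha and gamma clusters each gene has its own large first exon, which encodes the extracellular part, spliced to constant exons that all genes of the cluster share and that encode the common cytoplasmic end. Beta genes have no constant exons. The C-type genes at the end of the alpha cluster (Pcdhac1, Pcdhac2) and of the gamma cluster (Pcdhgc3, Pcdhgc4, Pcdhgc5) are for the most part used more broadly than the variable genes, which are chosen at random in many neurons. In the nervous system the family is known for letting a neuron tell its own branches from those of its neighbours, and the gamma genes also for the survival of interneurons.

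All 58 genes lie on the plus strand. In the coordinates of the deposited files (GRCm38) the alpha cluster covers chr18:36930184-37187661, the beta cluster chr18:37264938-37524479 and the gamma cluster chr18:37661793-37841873. By the exons of GENCODE M21, an alpha gene shares between 38.0% and 54.9% of its exonic bases with other alpha genes, and a gamma gene between 27.8% and 66.8% with other gamma genes. In the beta cluster only Pcdhb21 and Pcdhb22 overlap, by 455 bases. The values of single alpha and gamma genes therefore depend on how reads from shared exons were divided, and are less certain than those of beta genes and than the sum over a cluster. Pcdhgb8 is annotated as a polymorphic pseudogene.

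Values are given as scaled TPM, which is the deposited TPM (a relative transcript level, corrected for gene length and library total) divided by 1 factor per library that sets the median tested gene level between libraries. Fold changes were tested as differences of log2(scaled TPM + 1), a scale that understates changes of genes near or below 1 TPM, where many of these genes lie. A member was called where limma gave a Benjamini-Hochberg adjusted p under 0.05. Of the 58 genes, 57 were abundant enough to test (a mean of at least 1 TPM as deposited in IN or in IP), and 36 of them passed only through their IP values. Pcdhb1, the most upstream beta gene, was left out, with 0 to 0.0197 scaled TPM in IN and 0 to 0.00912 in IP. The deposited values keep no read counts, so the depth behind them is unknown.

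The libraries carried the marks of the pulldown. Scn10a, the gene of Nav1.8, stood at 125 ± 12.4 scaled TPM in IN and 381 ± 46.8 in IP (SD, n = 8 each), and was higher in 8 of 8 pools. All 9 nociceptor markers tested were called higher in IP, and all 8 markers of large-diameter neurons, 7 of satellite glia, 7 of Schwann cells, 8 of fibroblasts and leptomeninges, 6 of endothelial cells and 5 of macrophages were called lower. On the deposited, unscaled TPM 4 of the large-diameter, 2 of the satellite glia, 1 of the Schwann cell, 1 of the fibroblast and 1 of the macrophage markers turned higher. On that scale 14623 of all 16099 genes tested were called higher. No marker was at 0 in all IP libraries. Among IP libraries, that of female pool 2 held the most satellite glia RNA, a summed 384 scaled TPM against at most 291 in the other IP libraries and 1343 to 1732 in IN. Nuclear protein-coding genes took up 9.58% to 13.3% of the deposited TPM in IN and 44.9% to 79.5% in IP, where female pool 2 was the lowest and the next library stood at 57.6%. This difference in make-up moves with every comparison of IP with IN, and its part in the results was not tested. In bulk samples, fewer cells of a type and less RNA per cell cannot be told apart.

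The make-up of the family differed between total and ribosome-bound RNA, with a larger alpha share and a smaller beta share in the ribosome-bound RNA of each pool. Alpha genes made up 31.1 ± 1.24% of the summed level of all members in IN and 37.7 ± 1.23% in IP (SD, n = 8 each), higher in 8 of 8 pools. Beta genes made up 23.6 ± 1.94% in IN and 16.6 ± 0.654% in IP, lower in 8 of 8 pools. The gamma share was 45.3 ± 2.97% and 45.8 ± 1.18%, higher in 4 pools and lower in 4. Neither the alpha nor the beta shares overlapped between fractions: alpha ranged from 29.6% to 33.0% in IN and from 35.3% to 39.1% in IP, and beta from 21.1% to 26.8% in IN and from 15.3% to 17.1% in IP. These shares are taken within a library, so they do not depend on how libraries are scaled to each other. They were chosen after the values were seen and are given with no test.

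The summed alpha level was 38.6 ± 1.78 scaled TPM in IN and 62.4 ± 2.96 in IP, a ratio of 1.62, with pool ratios between 1.42 and 1.75. The smallest of these ratios and the lowest IP value, 56.3, came from female pool 2, whose IP library held the most glial RNA and the lowest protein-coding share; the part of either in the value was not tested. The gamma sum went from 56.5 ± 6.74 to 75.9 ± 4.09, a ratio of 1.34, and was higher in IP in 8 of 8 pools. The beta sum went from 29.3 ± 0.945 to 27.4 ± 1.35, a ratio of 0.937, and was lower in 8 of 8 pools, a direction that turns on the unscaled TPM, where the ratios are 7.99 for alpha, 4.62 for beta and 6.58 for gamma.

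**Figure D1:**
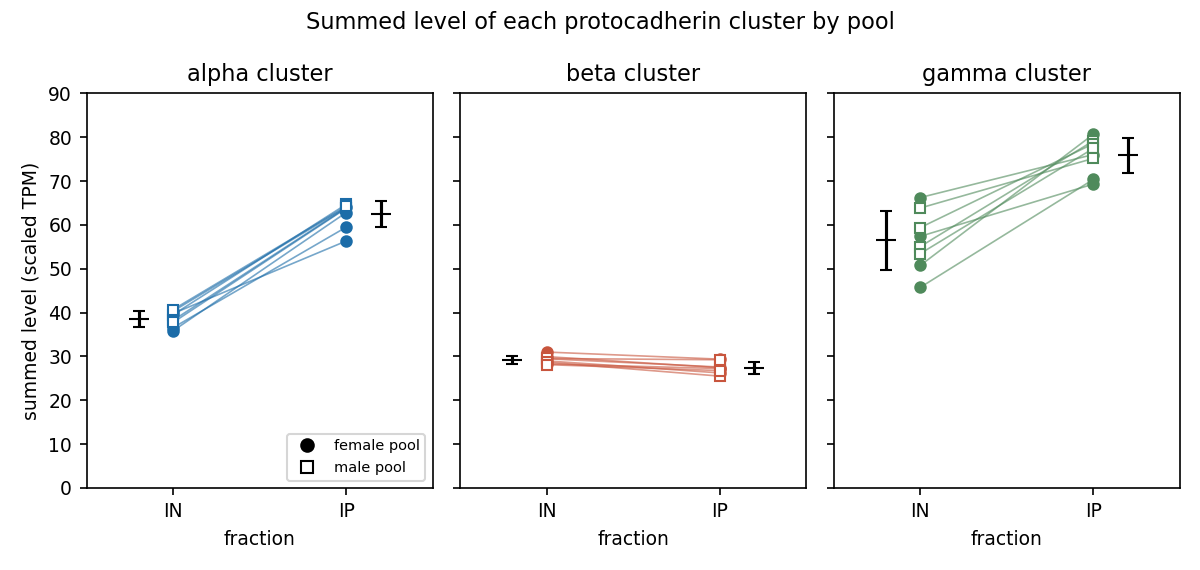
Summed level of the alpha, beta and gamma genes (scaled TPM) in the IN and IP library of each pool, lines joining the libraries of a pool, with mean and SD over 8 libraries beside them. Alpha and gamma sums were higher in IP in 8 of 8 pools, while beta sums stayed between 25.5 and 31.0, slightly lower in IP on this scale and higher on unscaled TPM.

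Across all 16099 genes tested, limma called 40.5% higher and 38.9% lower in IP, and the median log2 difference was 0.02. Of all 14 alpha genes, 12 were called higher in IP and 0 lower, with a median log2 difference of 0.52. The level filter left out no alpha gene, although 10 of them passed it only through their deposited IP values. With no filter the count was also 12. In the beta cluster 5 of 21 were called higher and 10 lower (median -0.04), and in the gamma cluster 8 of 22 higher and 0 lower (median 0.10), with 17 beta and 9 gamma genes passing the filter only through IP. The share called higher was 85.7% for alpha, 23.8% for beta and 36.4% for gamma genes, and the share called lower 0%, 47.6% and 0%. Gamma genes were thus close to all genes in higher calls and far below them in lower calls, and 63.6% of them were not called, against 20.6% of all genes. The scale matters for these signs: the median gene sat at 1.84 on unscaled TPM and at 0.20 after quantile normalization, with 94.0% and 62.9% of all calls on the higher side against 51.0% here, and the 10 beta genes called lower turned positive under both. Relative to the median gene of each scale, all 10 stayed below it on unscaled TPM. There 20 of all 21 tested beta genes lay below it, so this does not set the 10 apart. After quantile normalization only Pcdhb16, Pcdhb18 and Pcdhb22 stayed below it. The 12 alpha genes called higher kept their sign under both, and relative to the median gene Pcdha5 was at -0.02 on unscaled TPM and the other 11 were above 0.

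**Figure D2:**
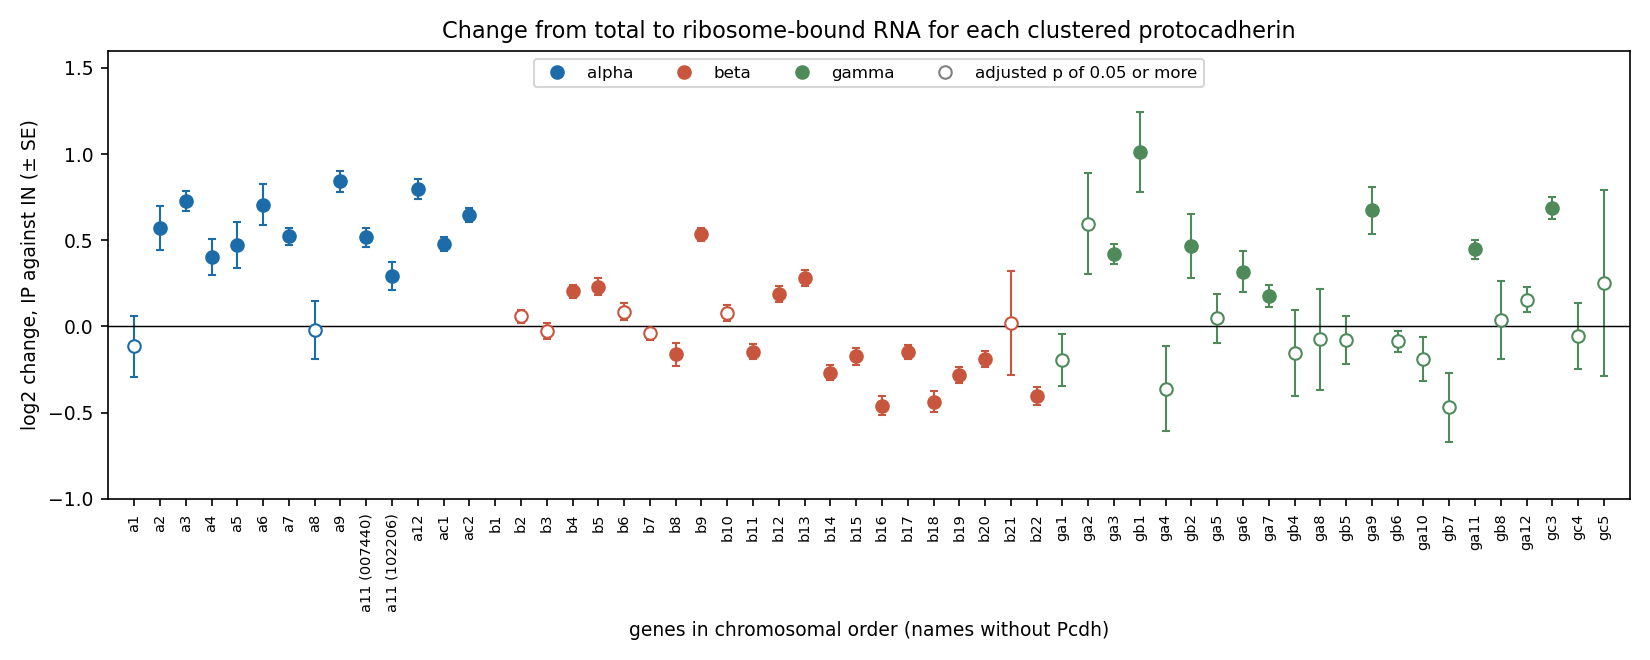
Difference in log2(scaled TPM + 1) between IP and IN with its standard error, for the 57 tested genes in chromosomal order (Pcdhb1 was not tested), filled where limma's adjusted p is under 0.05. Alpha genes lie mostly between 0.29 and 0.84; beta genes from Pcdhb14 onward lie mostly below 0, although they are positive on unscaled TPM and after quantile normalization; gamma genes scatter with wide errors.

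In the alpha cluster the most abundant gene in both fractions was Pcdhac2, a C-type gene known for its part in the tiling of serotonergic axons. It ranged from 8.83 to 13.7 scaled TPM in IN (median 11.9) and from 15.1 to 21.4 in IP (median 18.9). All 8 IP libraries lay above all 8 IN libraries, with a log2 difference of 0.65 ± 0.04 (SE; adjusted p = 1.7e-07, limma). The other alpha C-type gene, Pcdhac1, ranged from 4.38 to 5.35 in IN (median 5.13) and from 6.83 to 8.07 in IP (median 7.32), again without overlap, with a log2 difference of 0.48 ± 0.04 (adjusted p = 1.14e-06, limma). Pcdhac2 made up 29.7% of the alpha sum in IN and 29.7% in IP, higher in 4 pools and lower in 4, while the share of Pcdhac1 was lower in IP in 8 of 8 pools, 13.0 ± 0.804% against 11.8 ± 0.661%.

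Among the 12 alpha genes with variable first exons, 10 were called higher in IP (83.3%, against 40.5% of all genes). Of the 12, 10 passed the level filter only through their IP values, though not the same 10. The largest difference was that of Pcdha9, from 1.58 to 2.07 scaled TPM in IN (median 1.82) and from 3.22 to 5.04 in IP (median 4.07), a ratio of means of 2.23 with no overlap (log2 difference 0.84 ± 0.06). Pcdha12, the variable gene nearest the C-type genes, went from a mean of 2.17 ± 0.285 to 4.56 ± 0.873, and Pcdha3 from 1.22 ± 0.194 to 2.67 ± 0.172, also without overlap. Pcdha6 was the most abundant variable alpha gene in IP, at 5.39 ± 0.749 against 2.96 ± 0.845 in IN, and its IP library was the higher in 7 of 8 pools. In IN the most abundant was Pcdha11/ENSMUSG00000102206, at 3.58 ± 1.09 against 4.54 ± 0.85 in IP, which had the smallest difference of the 12 genes called (0.29). Over all 12 variable alpha genes, the mean levels ran from 0.569 to 3.58 scaled TPM in IN and from 0.484 to 5.39 in IP.

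The 2 alpha genes that were not called were the lowest of the cluster in IP. Pcdha8 ranged from 0.187 to 1.69 in IN (median 0.261) and from 0.215 to 0.913 in IP (median 0.470), and only 2 IN libraries, those of female pool 3 and male pool 4, exceeded 1. Pcdha1, the most upstream alpha gene, ranged from 0.340 to 2.96 in IN and from 0.995 to 2.23 in IP, lower in IP in 5 of 8 pools. Over all 14 alpha genes, 6 had every IP library above every IN library, and 0 had every IP library below; among all genes tested these patterns held for 22.4% and 26.0%.

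The C-type genes of the gamma cluster did not behave alike. Pcdhgc3, which is expressed in many cell types of the nervous system, was by far the most abundant gamma gene, with 8.46 to 14.1 scaled TPM in IN (median 10.2) and 13.97 to 20.07 in IP (median 18.3). It was higher in IP in 8 of 8 pools, with a log2 difference of 0.69 ± 0.06 (adjusted p = 2.6e-06, limma), though the lowest IP library, of female pool 1, lay just under the highest IN library. Pcdhgc3 took up 18.8 ± 2.65% of the gamma sum in IN and 23.1 ± 1.8% in IP, higher in 8 of 8 pools. Pcdhgc4, the gamma gene required for the survival of spinal interneurons, ranged from 1.64 to 4.65 in IN (median 2.72) and from 1.65 to 5.01 in IP (median 2.24), and was not called (log2 difference -0.06 ± 0.19).

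Pcdhgc5 was at low levels in most libraries and high in a few. The IN libraries of female pool 2, at 4.86, and of male pool 2, at 3.56, stood above the other 6, which lay between 0.357 and 0.978. In IP the high libraries were those of female pool 3 (8.17), of male pool 4 (6.01) and of male pool 1 (4.82), and the other 5 lay between 0.312 and 0.363. No pool was high in both fractions, and the difference was not called (0.25 ± 0.54). Pcdhgc5 shares 27.8% of its exonic bases with other gamma genes, the lowest share in the cluster.

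**Figure D3:**
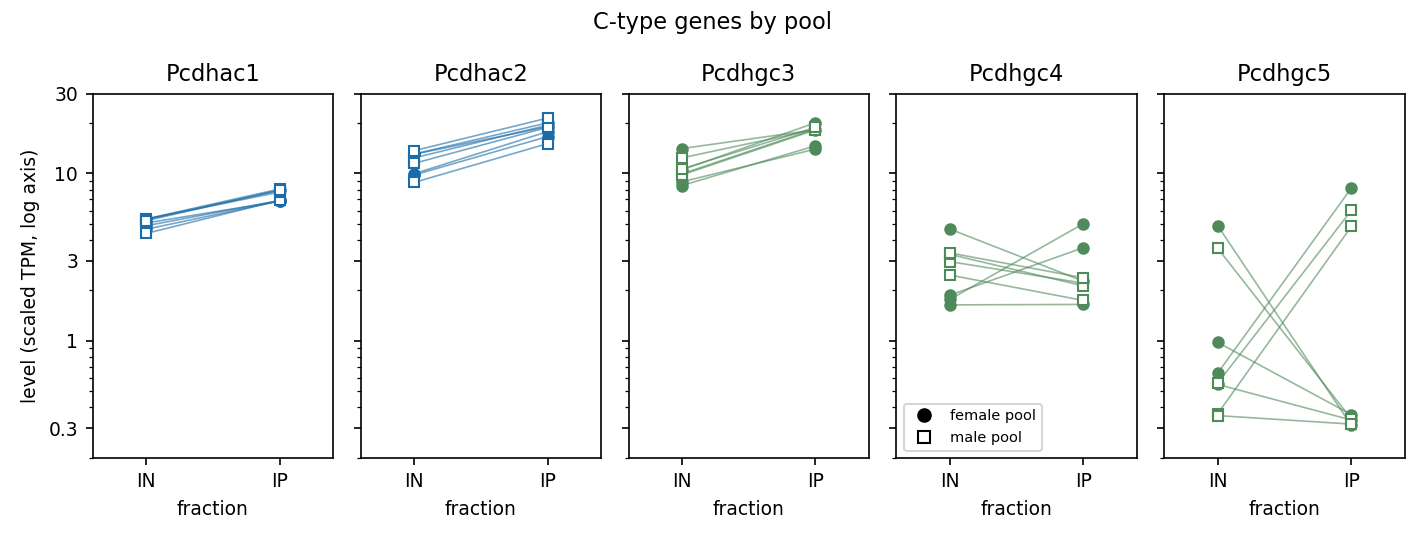
Level of the 5 C-type genes (scaled TPM, log axis) in the IN and IP library of each pool, lines joining the libraries of a pool. Pcdhac1, Pcdhac2 and Pcdhgc3 were higher in IP in 8 of 8 pools, whereas Pcdhgc5 was above 3 in 2 IN and 3 IP libraries, no 2 of them from the same pool.

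Among the 19 gamma genes with variable first exons, 7 were called higher in IP (36.8%, against 40.5% of all genes). Pcdhga3 and Pcdhga11 alone had every IP library above every IN library, 10.5% of these genes against 22.4% of all genes tested. Pcdhga11 ranged from 2.16 to 3.22 scaled TPM in IN (median 2.53) and from 3.47 to 4.34 in IP (median 3.94; log2 difference 0.45 ± 0.05). Pcdhga3 was at 2.46 ± 0.377 in IN and 3.62 ± 0.323 in IP. The largest difference was that of Pcdhgb1, 1.01 ± 0.23, but its 8 IP libraries spread from 3.37 to 10.8 (median 6.83) over IN values from 1.66 to 4.58, with 7 of 8 pools higher. Pcdhga9 was higher in 7 of 8 pools, at 2.12 ± 0.42 in IN and 4.04 ± 1.11 in IP. The calls of Pcdhgb2 (0.47 ± 0.18), Pcdhga6 (0.32 ± 0.12) and Pcdhga7 (0.18 ± 0.06) were less firm. Limma lost that of Pcdhgb2 without any 1 of female pools 3 and 4 and male pools 1, 3 and 4 (adjusted p from 0.0536 to 0.0867), that of Pcdhga6 without any 1 of female pools 1, 3 and 4 and male pool 4 (0.0505 to 0.0721), and that of Pcdhga7 without any 1 of female pools 1 and 3 and male pool 1 (0.0544 to 0.0633).

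Of the other 12 variable gamma genes, none was called in either direction with all pools in the fit. Pcdhga2 had an IP mean of 4.62 ± 4.67 that rested on male pool 2, at 15.4, and male pool 3, at 6.99, with 1.81 to 4.00 in the other 6 IP libraries. Pcdhga4, which lies just downstream of Pcdhgb1, ranged from 0.717 to 3.06 in IN and from 0.163 to 2.88 in IP, and its lowest IP values came from female pool 1 and male pool 2. Pcdhgb7 was at 2.13 ± 1.29 in IN and 1.24 ± 0.77 in IP, lower in IP in 7 of 8 pools, with an adjusted p of 0.052 (limma); without female pool 2, limma called both it (-0.63, adjusted p = 0.00769) and Pcdhga10 (-0.32, adjusted p = 0.00516) lower, and without female pool 4 it called Pcdhgb7 lower (-0.54, adjusted p = 0.0465) and Pcdhga5 higher (0.20, adjusted p = 0.0176). Pcdhga12 was called higher without male pool 2 (0.20, adjusted p = 0.0239) or male pool 4 (0.19, adjusted p = 0.047). In the beta cluster Pcdhb21 was uneven in the same way, at 0 in 2 IN and 3 IP libraries and above 1.8 in 2 of each.

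The clusters differed in how far single genes spread between libraries. The standard deviation over the 8 libraries of a fraction, as a percentage of the mean, had a median over genes of 9.16% in IN and 11.1% in IP for beta genes, 24.2% and 17.4% for alpha genes, and 28.8% and 43.9% for gamma genes. In IP 12 of the 22 gamma genes had a spread above 40%, against 1 of 14 alpha and 1 of 21 beta genes. In IN the counts were closer, with 5 of 22 gamma, 3 of 14 alpha and 1 of 21 beta genes. Reads from shared exons are divided among the genes of a cluster. Beta genes, which share almost none, had the smallest spread. Alpha genes shared a median of 53.4% of their exonic bases and gamma genes 44.7%, while gamma genes had the larger spread in both fractions. The part of the division of reads in the spread was not tested.

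**Figure D4:**
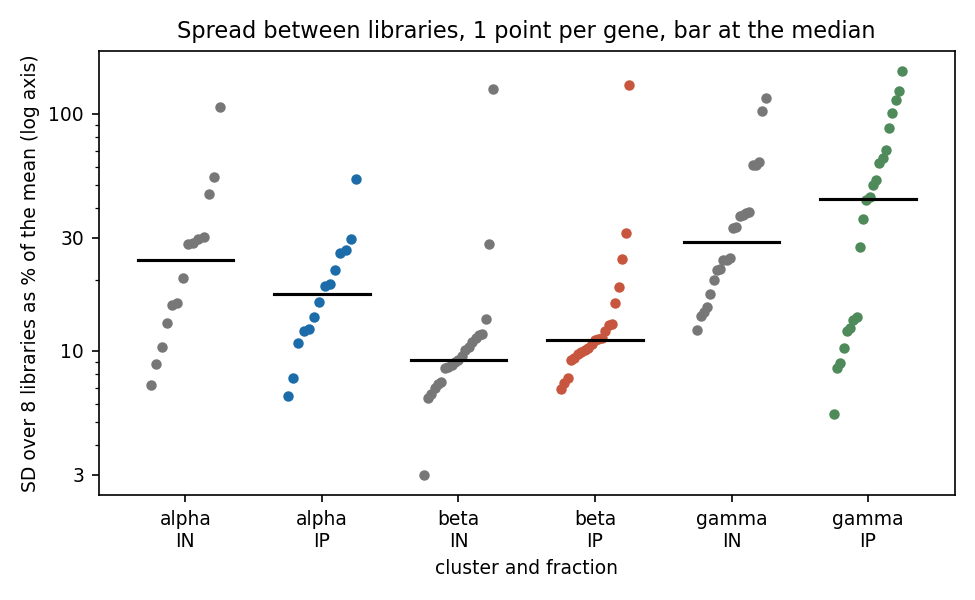
Standard deviation over 8 libraries as a percentage of the mean (log axis), 1 point per tested gene, by cluster and fraction, with a bar at the median. Most beta genes lie near 10%, with Pcdhb8 at 28.2% in IN and 31.5% in IP and Pcdhb21 above 100%, and gamma genes in IP reach from 5.4% to 152%.

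Within the beta cluster the difference between fractions went with position on scaled TPM and in shares of the beta sum. From Pcdhb14 to the downstream end of the cluster, 8 of 9 genes were called lower in IP (88.9%) and 0 higher. Of the 12 tested genes upstream of Pcdhb14, 5 were called higher (41.7%) and 2 lower (16.7%). Among all genes tested, 40.5% were called higher and 38.9% lower, so the upstream share called higher was near that of all genes. All 12 upstream genes passed the level filter only through IP, as did 5 of the 9. The 8 lower calls turn positive on unscaled TPM and after quantile normalization. Relative to the median gene on unscaled TPM, 11 of the 12 upstream and all 9 downstream genes lay below it, with medians of -0.62 and -0.75. The 2 parts thus differed little there. After quantile normalization these medians were 0.46 and 0.09. As a share of the beta sum within a library, which a factor per library cannot change, the genes from Pcdhb14 on made up 59.4 ± 1.71% in IN and 47.2 ± 2.51% in IP (SD, n = 8 each). That share was lower in IP in 8 of 8 pools, from 56.7% to 61.9% in IN and from 43.5% to 51.1% in IP, with no overlap. Part of this shift lay in 1 upstream gene, Pcdhb9, whose share of the beta sum was 7.21% in IN and 12.8% in IP. The division at Pcdhb14 was made after the values were seen and is a description with no test.

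Among the downstream genes, Pcdhb16 ranged from 2.51 to 3.14 scaled TPM in IN (median 2.67) and from 1.41 to 1.996 in IP (median 1.68), with a log2 difference of -0.46 ± 0.06 (adjusted p = 2.66e-05, limma). Pcdhb18 was at 1.70 ± 0.2 in IN and 0.994 ± 0.184 in IP, and Pcdhb22, the last gene of the cluster, at 2.47 ± 0.226 and 1.63 ± 0.26. In all of these, and in Pcdhb14 and Pcdhb19, every IP library lay below every IN library, and these 5 genes, 8.77% of the members tested, were the only ones with that pattern on scaled TPM, against 26.0% of all genes. Pcdhb17 was the most abundant beta gene in IN, at 3.44 ± 0.219 against 3.00 ± 0.207 in IP, lower in 8 of 8 pools (log2 difference -0.15 ± 0.04). On unscaled TPM all of these differences are positive, as they are after quantile normalization, where those of Pcdhb16 (0.02), Pcdhb18 (0.08) and Pcdhb22 (0.09) are the smallest in the cluster.

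Among the tested upstream genes, all of which passed the level filter only through IP, Pcdhb9 stood apart. It ranged from 1.89 to 2.37 scaled TPM in IN (median 2.13) and from 3.01 to 3.85 in IP (median 3.57), with no overlap and a log2 difference of 0.53 ± 0.04 (adjusted p = 6.44e-07, limma). Its share of the beta sum was 7.21 ± 0.46% in IN and 12.8 ± 1.19% in IP, higher in 8 of 8 pools, and in IP it was the most abundant beta gene. Pcdhb13 went from 0.769 ± 0.0773 to 1.15 ± 0.116 and Pcdhb12 from 1.08 ± 0.0781 to 1.37 ± 0.128, both without overlap. With Pcdhb9 these were 3 genes, 14.3% of the beta genes tested, with every IP library above every IN library, against 22.4% of all genes. Pcdhb4 and Pcdhb5 were also called higher, in 8 of 8 pools each. Relative to the median gene on unscaled TPM, however, Pcdhb4 and Pcdhb5 were at -0.33 each, Pcdhb12 at -0.40 and Pcdhb13 at -0.44. Pcdhb9 was above it, at 0.32. After quantile normalization all of these genes were above the median gene. Pcdhb8 (-0.16 ± 0.07) and Pcdhb11 (-0.15 ± 0.04) were the 2 upstream genes called lower, and both are positive on unscaled TPM and after quantile normalization; limma's call of Pcdhb8 was lost without any 1 of female pools 1 and 4 and male pools 2, 3 and 4 (adjusted p from 0.0689 to 0.121).

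**Figure D5:**
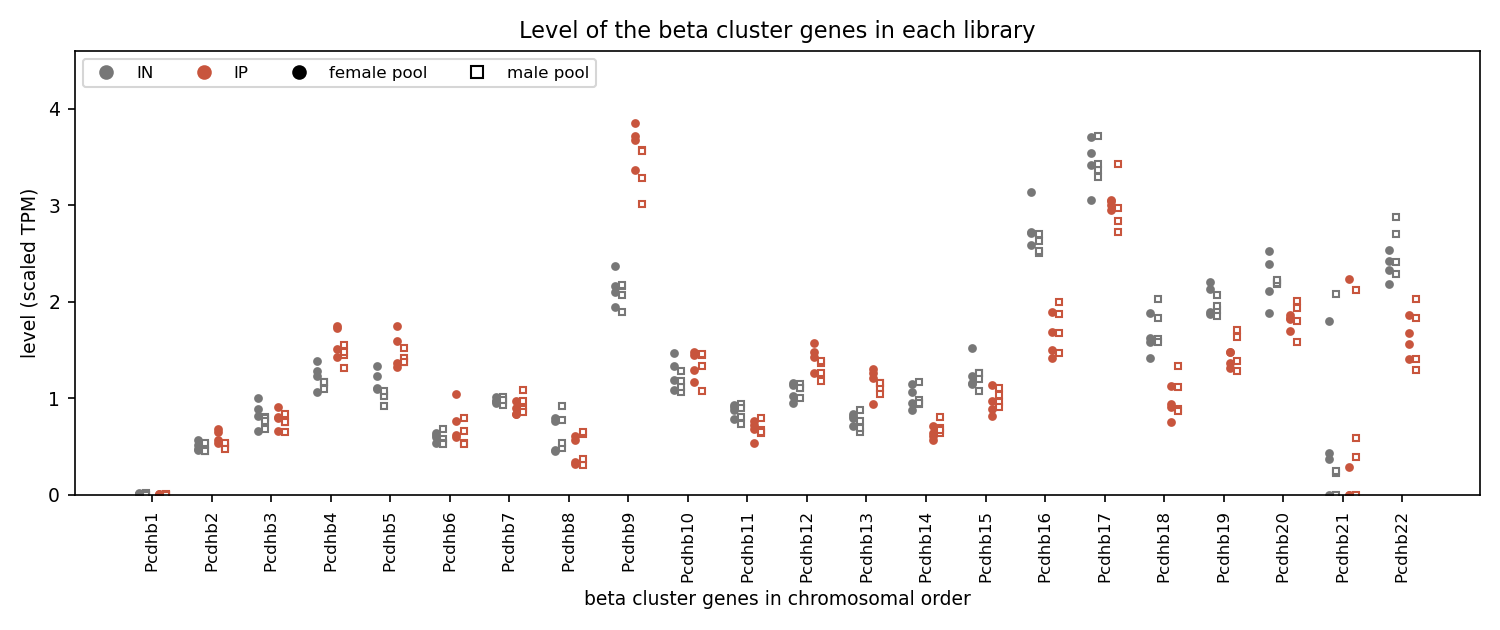
Level of each beta gene (scaled TPM) in all 16 libraries, in chromosomal order. Pcdhb9 is higher in IP (red) than in IN (grey), and from Pcdhb14 on the IP libraries lie mostly below the IN libraries on this scale, though not on unscaled TPM or after quantile normalization.

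No member differed between the sexes in limma's test at an adjusted p under 0.05. In IN 21 members were abundant enough to test, 0 were called and 0 had an unadjusted p under 0.05, against 0.0824% of all genes called and 4.76% with such a p. In IP 57 were tested, 0 were called and 3 had an unadjusted p under 0.05 (Pcdha8, Pcdhga8 and Pcdhga9), against 0.0507% of all genes called and 2.30% with such a p. For the difference of the IP-to-IN change between the sexes, 0 of 57 were called and 2 had an unadjusted p under 0.05 (Pcdhga6 and Pcdhga8), against 0.0186% of all genes called and 2.78% with such a p. The summed alpha level in IP was 60.7 ± 3.48 in female and 64.2 ± 0.399 in male pools (SD, n = 4 each), the beta sum 27.6 ± 1.31 and 27.3 ± 1.56, and the gamma sum 74.1 ± 5.28 and 77.6 ± 1.75.

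The female and male IP libraries did not overlap for Pcdha8. Its female values were 0.675, 0.913, 0.565 and 0.658 scaled TPM in pools 1 to 4, and its male values 0.375, 0.215, 0.227 and 0.246. All 4 female libraries lay above all 4 male ones, which held for 1 of 57 members and 0.811% of all genes (the reverse for 0 members and 0.856%), and over 15776 genes the adjusted p was 0.9999 (limma). Pcdhga8 in IP was at 1.26, 1.51, 0.0575 and 1.297 in female pools 1 to 4 and at 0.0910, 0.145, 0.132 and 0.0752 in male pools. Without female pool 3, limma called it higher in females (log2 difference 1.07, adjusted p = 0.0039). In IN, however, Pcdhga8 was highest in male pool 3, at 1.91, and female pool 3, at 1.22, and in female pools 1, 2 and 4 it lay between 0.145 and 0.194.

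Genes that act on or with the family were read from lists of known factors. Of 18 tested genes for promoter choice and looping, 15 were called lower in IP and 2 higher (median log2 difference -0.68). Among all genes 38.9% were called lower and 40.5% higher. The list includes the insulator protein gene Ctcf and the cohesin subunits that bring a chosen promoter to its enhancer. After quantile normalization 14 were lower and 2 higher. On unscaled TPM 16 were higher and 1 lower, where 14623 of all 16099 genes were called higher. Relative to the median gene there, the list had a median of -0.35. Ctcf was at 14.04 scaled TPM in IN and 9.77 in IP, lower on this scale. On unscaled TPM it was higher, with a log2 difference of 1.62, below the median gene there, at 1.84. The lowest difference was that of Ezh2, a histone methyltransferase gene (-1.92), followed by Tet1, which makes an enzyme of DNA demethylation (-1.46, positive on unscaled TPM), and the cohesin gene Smc1a (0.34) and the maintenance methyltransferase gene Dnmt1 (0.13) were the 2 called higher.

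Of 25 tested genes for partners of the proteins, 12 were called higher and 8 lower in IP (median 0.14), near the shares of all genes, 40.5% and 38.9%. On unscaled TPM 24 were higher and 1 lower, where 14623 of all 16099 genes were called higher. Relative to the median gene there, the list had a median of 0.51. The gamma-secretase genes Psen2 and Ncstn, whose products cut protocadherins within the membrane, had the largest positive differences (0.77 each). Marcks, a membrane-bound actin regulator (-1.61, positive on unscaled TPM), and Nlgn1, a synaptic adhesion gene (-1.40), had the lowest.

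Relatives outside the clusters and their neighbours were read in the same way, again beside 40.5% of all genes called higher and 38.9% lower. On unscaled TPM 14623 of all 16099 genes were called higher and 935 lower. Relative to the median gene there, the median difference was -0.98 for nonclustered protocadherins, -0.0008 for other cadherin genes and 0.27 for the neighbours. Of 9 tested nonclustered protocadherins, 6 were called lower and 2 higher in IP (median -0.54; 0 lower and 8 higher on unscaled TPM). Pcdh7 was at 17.2 scaled TPM in IN and 4.74 in IP, and Pcdh1 at 29.8 and 67.4. Of 23 other cadherin genes 13 were called lower and 6 higher (median -0.27; 2 lower and 19 higher on unscaled TPM), between Cdh19, a Schwann cell lineage cadherin (-2.97), and Cdh1, the gene of E-cadherin (1.17). Of 12 tested genes flanking or lying between the clusters, 6 were called higher and 3 lower, shares not far from those of all genes (median 0.23; 12 higher and 0 lower on unscaled TPM), from Rell2 (-0.63, positive on unscaled TPM) to Ndufa2, a subunit of mitochondrial complex I (0.78).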

How the data were processed

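Total and ribosome-bound RNA of 8 ganglion pools was sequenced after ribosomal RNA depletion, per the labels' protocols. Per the submitters' processing notes, reads were handled with FastQC, STAR 2.2.1 and StringTie 1.3.5 on GRCm38.p5; strand setting and annotation release: not given in the sources used here. Each deposited library sums to 1000000, so its values were taken to be TPM as the authors computed them. Entries of 1 gene ID were summed. Libraries were scaled by the median of ratios over tested genes (factors 0.375 to 0.532 for IN, 1.65 to 2.69 for IP), then log2(scaled TPM + 1) was computed. Genes with a mean of at least 1 TPM in IN or IP (in the fraction itself, for the sexes) were tested with limma 3.58.1 in R 4.3.3 (eBayes with trend, two-sided). IP against IN and its difference between sexes had the pool as a block, since both libraries come from the same mice; the correlation of their deviations from group means was 0.007 to 0.414. The sexes were compared without a block. Each pool holds other mice, so p-values measure spread between pools. The fit was tested on simulated data with known changes.

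Alternatives were unscaled TPM, quantile normalization, a pseudocount of 0.1, a filter at 0.1 TPM or none, the other block setting, and leaving out each pool. Members, lists and alternatives were chosen with earlier results of these data known. Levels in every library were drawn on for C-type genes, the 3 most abundant genes and the 3 largest differences either way per cluster, and members that stood out between the sexes. Up to 4 genes per other list were named, and Ctcf was named after its values were seen. Figures were made in Python 3.11.15 with matplotlib 3.10.9.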

Additional observations from a re-analysis of the deposited data

Results flagged for a closer look

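Within groups of 4 libraries, the highest or lowest library was checked for a gap to the others that is large for the range of the group, for all 57 tested members and the 3 cluster sums. Of 240 groups examined, 22 held such a library. They came from 7 of 56 groups for alpha, 3 of 84 for beta and 12 of 88 for gamma genes, and 0 of 12 for the sums. The cut-off marks about 1 in 20 groups of independent, normally distributed values. Levels were checked here without a log transform, and genes of a cluster share reads. All flagged libraries but that of Pcdhac1 in IN of male pool 2 were at the high end. No rate over all genes was computed, so whether the count exceeds chance was not tested.

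Pcdhgc5 stood out in 3 groups: 4.86 scaled TPM in IN of female pool 2, against 0.549 to 0.978 in the other 3 libraries, 8.17 in IP of female pool 3, against 0.312 to 0.363, and 3.56 in IN of male pool 2, against 0.357 to 0.559. Pcdhgc4 was at 4.65 in IN of female pool 2, against 1.64 to 1.88, so both downstream gamma C-type genes were high in that library. Pcdhga10 was at 7.14 in IP of female pool 2, against 1.33 to 1.80, and at 2.37 in IP of male pool 4, against 1.35 to 1.49. Pcdhgb5 was at 2.34 in IN of female pool 4, against 1.71 to 1.78, and at 3.48 in IN of male pool 2, against 1.48 to 1.68. Pcdhga5 was at 5.52 in IN of female pool 4, against 1.68 to 1.81, and Pcdhga8 at 1.22 in IN of female pool 3, against 0.145 to 0.194. In male pool 4 Pcdhgb7 was at 5.29 in IN, against 1.61 to 2.02, and Pcdhgb8 at 4.16 in IP, against 0.192 to 0.317.

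Pcdha8 was at 1.69 in IN of female pool 3, against 0.241 to 0.317, and at 1.39 in IN of male pool 4, against 0.187 to 0.225. Pcdha1 was at 2.23 in IP of female pool 1, against 1.13 to 1.25, and Pcdha4 at 2.33 in IN of that pool, against 1.62 to 1.66. Pcdha11/ENSMUSG00000007440 was at 3.67 in IP of male pool 2, against 2.28 to 2.46. Pcdhac1 was at 7.92 in IP of female pool 3, against 6.83 to 6.89, and at 4.38 in IN of male pool 2, against 5.21 to 5.34. Of the beta genes, Pcdhb21 was at 2.24 in IP of female pool 3, against 0 to 0.288, and at 2.09 in IN of male pool 1, against 0 to 0.248, and Pcdhb14 at 1.17 in IN of male pool 2, against 0.941 to 0.979.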

How the results depend on the processing

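The sign of many low genes in IP against IN rests on the scaling, and 23 of 57 members changed sign on unscaled TPM and 23 after quantile normalization. On unscaled TPM 21 beta genes were called higher and 0 lower and 22 gamma genes higher, beside 14623 of all 16099 genes tested. On that scale 20 of 21 beta and 14 of 22 gamma genes lay below the median gene. The ratios of sums were 7.99 for alpha, 4.62 for beta and 6.58 for gamma. After quantile normalization 17 beta genes were called higher and 0 lower, and 14 gamma genes higher, beside 8308 of all 16099 genes. The log2 differences that turned positive, on unscaled TPM and after quantile normalization in that order, were 1.17 and 0.40 for Pcdha1, 0.69 and 0.40 for Pcdha8, 0.99 and 0.55 for Pcdhb3, 1.08 and 0.56 for Pcdhb7, 0.65 and 0.35 for Pcdhb8, 0.85 and 0.43 for Pcdhb11, 0.77 and 0.30 for Pcdhb14, 1.03 and 0.40 for Pcdhb15, 1.09 and 0.018 for Pcdhb16, 1.58 and 0.30 for Pcdhb17, 0.85 and 0.085 for Pcdhb18, 1.15 and 0.24 for Pcdhb19, 1.33 and 0.33 for Pcdhb20, 1.12 and 0.090 for Pcdhb22, 1.401 and 0.29 for Pcdhga1, 1.38 and 0.34 for Pcdhgb4, 1.37 and 0.47 for Pcdhgb5, 1.599 and 0.39 for Pcdhgb6, 1.01 and 0.11 for Pcdhga4, 0.56 and 0.30 for Pcdhga8, 1.31 and 0.33 for Pcdhga10, 0.86 and 0.042 for Pcdhgb7, and 1.55 and 0.44 for Pcdhgc4. On unscaled TPM Tet1 (0.16), Marcks (0.57), Pcdh7 (0.33), Rell2 (1.57) and Ctcf (1.62) turned as well, all below the median gene of that scale, at 1.84. With a pseudocount of 0.1, Pcdha8 (0.080), Pcdhb21 (-0.095) and Pcdhgb8 (-0.26) turned, 1 gamma gene, Pcdhgb7, was called lower and limma lost the call of Pcdhb8 (adjusted p = 0.0529). With no filter limma lost Pcdhb8, Pcdhgb2 and Pcdhga6 (adjusted p from 0.0569 to 0.0721), and with the filter at 0.1 TPM no member's call changed.

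Without the pool as a replicate block, limma called 1 gamma gene lower, Pcdhgb7, and lost Pcdhb8 and Pcdhga6; no other member's call changed. Pool numbers do not pair the sexes (correlations of deviations from -0.299 to 0.101), and with a block on the number 0 members were called in either fraction. Leaving out 1 pool at a time gave 5 to 9 gamma genes called higher, 0 to 2 called lower and 0 to 1 members called between the sexes in IP, with the lowest gamma count without female pool 3. Of 35 members called, 31 kept their call without each single pool. Genes that were not called ranged across 0: Pcdha8 from -0.078 to 0.11, Pcdhb21 from -0.16 to 0.23, Pcdhga5 from -0.015 to 0.20, Pcdhgb4 from -0.32 to 0.025, Pcdhgb5 from -0.17 to 0.033, Pcdhgb8 from -0.19 to 0.14, Pcdhga8 from -0.081 to 0.11, Pcdhgc4 from -0.22 to 0.046 and Pcdhgc5 from -0.065 to 0.60. Depth cannot be recovered from TPM, so counting error at low levels is unknown. The cause of these changes was not tested.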
